A study of Homo sapiens with 36 samples.

Results

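The glycolysis and hypoxia-responsive genes described here are a list of 36 genes that cover glucose uptake, the enzymes of glycolysis, lactate handling, the kinases that hold back pyruvate oxidation, and transcripts that rise when oxygen is low. The list is one of gene names and sets no threshold on measured values, though it was drawn up with earlier results of these data known. A gene was taken as measured where an array probe carries its symbol alone, and where several such probes exist the one with the highest mean over all arrays was used. That gave 32 of the 36 genes, out of 17958 genes measured in the series. PGAM1, whose probes carry a second symbol, and SLC16A1, SLC16A3 and CA9, for which no such probe was found, were not analysed here. TPI1 was the only one of the 32 with several probes (3).

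Glycolysis splits glucose into pyruvate and yields ATP without oxygen. Phosphofructokinase sets much of its pace, and lactate dehydrogenase turns the pyruvate into lactate so that the pathway can run on. When oxygen is short, the hypoxia-inducible factors (HIF) escape the prolyl hydroxylases that mark them for destruction and switch on many of these genes, along with genes for blood vessel growth, pH control and collagen hydroxylation. Many cancer cells keep the program high also with oxygen present, and growth signals through the MAP kinase ERK are among the inputs that feed it.

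The study measured RNA on 36 single-colour Affymetrix arrays from MDA231, SUM159PT and BT549 cells, which are established breast cancer lines, with 3 arrays in each of 12 groups, and its stated aim was to find expression changes after MEK inhibition or loss of DUSP4. DUSP4 is a phosphatase that removes phosphate from MAP kinases, and selumetinib (AZD6244) blocks MEK, the kinase that activates ERK. All cells were transfected in suspension with 10 nM siRNA and harvested 96 h later. In each line the groups are siDUSP4 with DMSO, the control siRNA with 1 uM selumetinib for the last 4 h, the control siRNA with 1 uM selumetinib for the last 24 h, and siCONTROL, which is the control siRNA (a pool of non-targeting sequences) with DMSO. Each line kept its own medium, and SUM159PT cells also had hydrocortisone. For 24 arrays the titles name SUM159PT where the source name says BT549 or the reverse, and the groups follow the titles. Nothing states that replicates A, B and C were grown apart, so the spread among the 3 arrays of a group could be technical alone. A p-value here rests on that spread pooled over all 12 groups, not on the groups compared alone.

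The targeted transcript checks the labels. DUSP4 averaged 7.64 ± 0.18 in siDUSP4 MDA231 arrays and 10.06 ± 0.08 in siCONTROL on the log2 scale (SD, n = 3 each). It averaged 5.30 in siDUSP4 and 7.14 in siCONTROL arrays of SUM159PT, and 4.89 in siDUSP4 and 7.13 in siCONTROL arrays of BT549. DUSP4 was below siCONTROL under selumetinib as well. Its log2 change after 4 h was -2.35, -1.35 and -0.66 in MDA231, SUM159PT and BT549. After 24 h it was -1.26, -0.85 and -0.72. DUSP6, a transcript that follows ERK activity, averaged 6.83, 4.95 and 8.01 after 4 h of selumetinib in MDA231, SUM159PT and BT549, against 11.36, 7.86 and 9.61 in siCONTROL. RB1, which BT549 cells are known to have lost, averaged 6.83 in siCONTROL arrays titled BT549 and 9.40 in those titled SUM159PT, although it stood at 8.03 in the siDUSP4 arrays titled BT549. In siCONTROL cells, 5 of 6 mesenchymal markers lay above the median of all probes (5.33) in MDA231 (all but SPARC) and 6 of 6 in SUM159PT and BT549. Of 5 luminal markers, ERBB2, GATA3 and FOXA1 (3) lay above it in every line and ESR1 and PGR below it. Of 5 epithelial markers, KRT8 and KRT18 lay above it in every line, EPCAM in MDA231 and SUM159PT, and CDH1 and GRHL2 in none. Of 8 blood and endothelial markers, 1 lay above it in MDA231 (PECAM1), 3 in SUM159PT (PTPRC, CD14 and PECAM1) and 0 in BT549. Array upper quartiles ran from 7.48 to 8.03, and the 3 lowest were those of the MDA231 4 h arrays B (7.48) and C (7.66) and of the BT549 24 h array A (7.50). The number of arrays limits the precision.

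In siCONTROL cells the list differed widely between the lines, and 21 of the 32 members had their lowest mean in BT549. All values are RMA signals on the log2 scale, in which 1 unit is a doubling, and levels are compared only between samples of the same gene. A gene was called at a Benjamini-Hochberg adjusted p under 0.05 over all 17958 genes from limma, which fitted 1 mean per group. In siCONTROL cells of MDA231 against SUM159PT, 17 of 32 members were called higher and 7 lower, where 23.1% and 21.7% of all genes were. Of MDA231 against BT549, 24 were called higher and 3 lower, where 21.8% and 26.3% of all genes were. Of SUM159PT against BT549, 17 were called higher and 8 lower, where 22.3% and 27.9% of all genes were. The members' median difference was 0.30, 0.80 and 0.45 in these 3 comparisons, where the median over all genes was -0.01, -0.02 and -0.01. With array medians aligned the median of all genes for SUM159PT minus BT549 moved to -0.15, and that of the members to 0.31. Each array measured a whole culture, so fewer cells of a kind and less RNA per cell cannot be told apart.

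The glucose transporter SLC2A3 (GLUT3), which carries glucose with high affinity, gave 9.32, 9.04 and 8.94 in siCONTROL MDA231 arrays and 9.95, 9.98 and 9.96 in SUM159PT, but 4.85, 5.15 and 5.18 in BT549. Its BT549 values lie below the median of all probes (5.33) and no array of BT549 came near those of the other lines. SLC2A1 (GLUT1), the broadly expressed transporter, was ordered otherwise, at 12.21 ± 0.02 in MDA231, 10.76 ± 0.02 in SUM159PT and 10.19 ± 0.23 in BT549 (SD, n = 3 each), and all 3 pairs of lines were called different (limma adjusted p at most 2.72e-05). Hexokinase 2, which traps glucose in the cell as its phosphate, stood at 10.97 in MDA231, 10.10 in SUM159PT and 10.64 in BT549.

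Among the glycolytic enzymes GAPDH and ALDOA lay close together in the 3 lines, while ALDOC, ENO2 and PFKFB4 lay apart. GAPDH averaged 12.85, 12.84 and 12.66 in MDA231, SUM159PT and BT549, and ALDOA, the muscle-type aldolase, 8.78, 8.72 and 8.77, and neither was called between any 2 lines. ALDOC, the aldolase best known from brain, averaged 8.34 in MDA231, 9.72 in SUM159PT and 5.89 in BT549, a difference of 3.83 ± 0.15 (SE) between SUM159PT and BT549 (limma adjusted p = 2.62e-21). ENO2, the neuronal enolase, averaged 9.89 in MDA231, 7.81 in SUM159PT and 9.41 in BT549, so that here SUM159PT was the low line. PFKFB4, one of the bifunctional enzymes that make or remove the phosphofructokinase activator fructose 2,6-bisphosphate, averaged 8.37 in MDA231, 5.76 in SUM159PT and 5.34 in BT549. Its relative PFKFB2 averaged 6.40 in MDA231, 5.74 in SUM159PT and 7.44 in BT549, so that BT549, the lowest line for PFKFB4, was the highest here.

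The 3 measured pyruvate dehydrogenase kinases, which switch off the entry of pyruvate into the mitochondrial cycle, were not all ordered alike. PDK4 was highest in SUM159PT, while PDK3 and PDK1 were lowest there. PDK4 averaged 6.82 in MDA231, 9.07 in SUM159PT and 5.35 in BT549, PDK3 8.52, 6.22 and 7.10, and PDK1 9.26, 8.32 and 9.09. MDA231 and BT549 were not called different in PDK1 (0.18 ± 0.11, limma adjusted p = 0.218). Of the 8 hypoxia-responsive members outside glycolysis, 7 were called higher in MDA231 than in BT549, where 21.8% of all genes were. In SUM159PT 7 were called higher than in BT549, where 22.3% of all genes were. NDRG1, a stress-induced gene widely used as a hypoxia marker, had the widest range of the list. It gave 11.87, 11.84 and 11.93 in MDA231, 10.24, 10.05 and 10.06 in SUM159PT, and 6.07, 6.43 and 6.49 in BT549. EGLN3, the HIF prolyl hydroxylase that is itself induced by HIF, averaged 7.99, 9.69 and 5.89 in MDA231, SUM159PT and BT549, and the cell-surface carbonic anhydrase CA12 averaged 9.22, 11.56 and 8.40. VEGFA, the blood vessel growth factor, averaged 9.92, 9.79 and 9.77 and was called between no 2 lines.

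**Figure D1:**
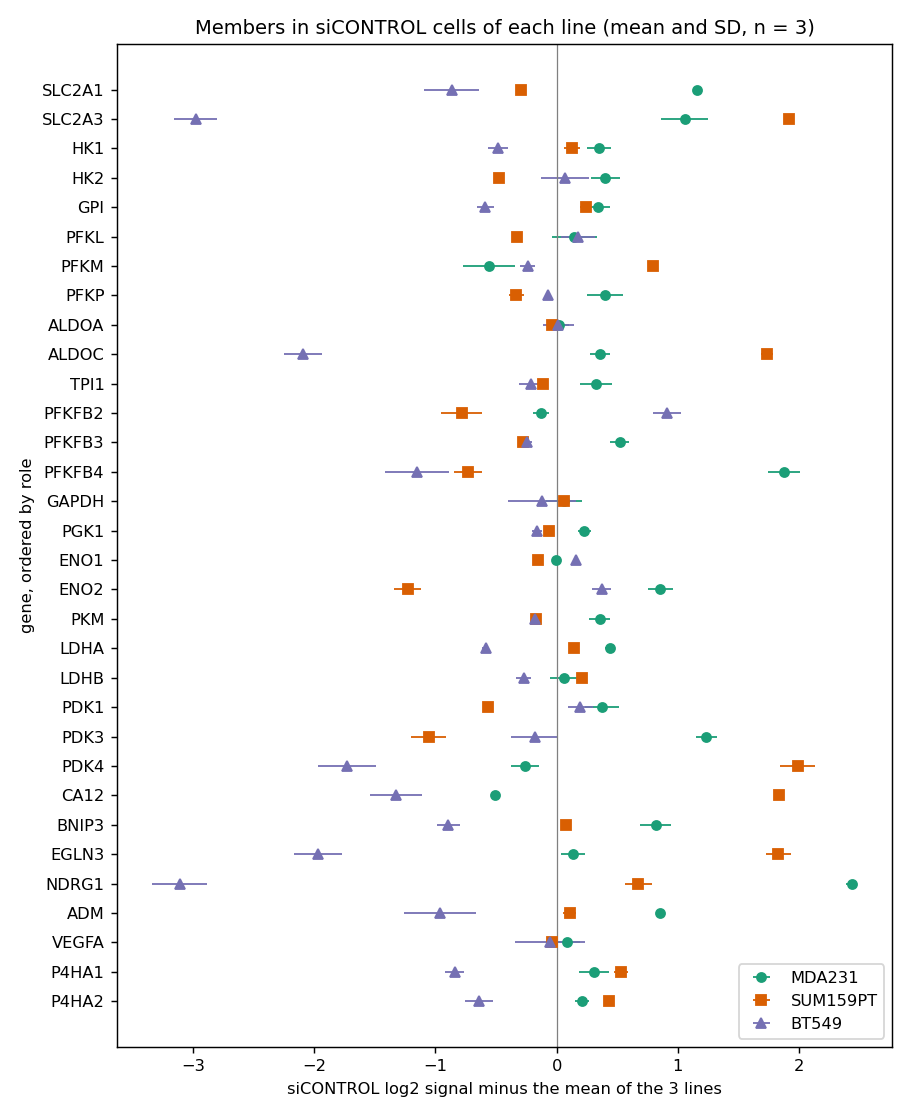
Log2 signal of the 32 members in siCONTROL cells of MDA231, SUM159PT and BT549, as the difference from the mean of the 3 lines for each gene. Points are means and bars SD of 3 arrays; NDRG1, SLC2A3, ALDOC, EGLN3 and PDK4 spread most, with BT549 lowest in all 5, while GAPDH, ALDOA and VEGFA lie together.

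Knockdown of DUSP4 lowered P4HA2 in all 3 lines, CA12, PDK1, NDRG1, PFKL and P4HA1 in MDA231 and BT549, and VEGFA in SUM159PT and BT549. Of 15 alternative fits (other scalings, weightings or arrays), 8 kept the VEGFA call in SUM159PT. In BT549 9 kept PFKL, 10 NDRG1, 11 PDK1 and 13 P4HA1. All 15 kept P4HA2 in each line and CA12 in MDA231 and BT549. In MDA231 it also lowered ALDOC and PFKFB4 and raised PDK4. In siDUSP4 against siCONTROL MDA231 cells, 13 of 32 members were called lower and 2 higher, where 9.77% and 7.86% of all genes were. In BT549, 8 were called lower and 3 higher, where 9.22% and 4.97% of all genes were. In SUM159PT, 3 were called lower and 1 higher, where 1.78% and 1.05% of all genes were. The members' median log2 change was -0.21 in MDA231, 0.06 in SUM159PT and 0.01 in BT549, and that of all genes 0.01, -0.04 and 0.01. The siDUSP4 change differed between the lines in 15 of 32 members (46.9%) by a limma F test, where 15.5% of all genes did. The direction in BT549 rested on the scaling: with quantile normalization repeated, 7 members were called lower and 9 higher, where 10.4% and 9.71% of all genes were.

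**Figure D2:**
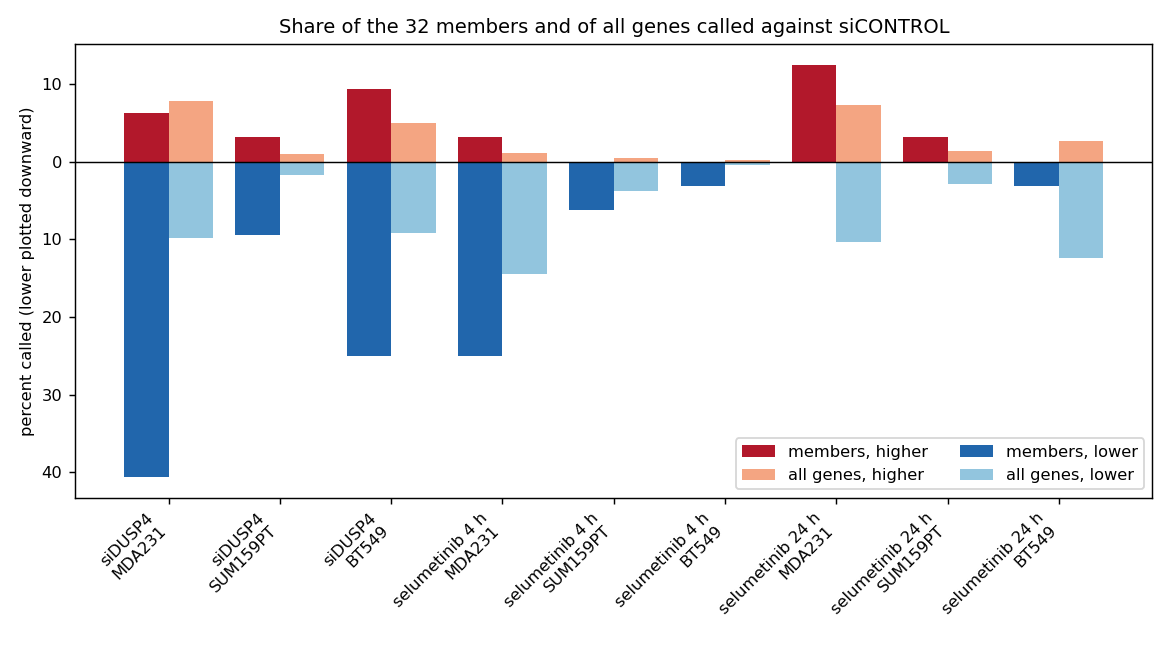
Percent of the 32 members and of all 17958 genes called higher (upward bars) or lower (downward bars) against siCONTROL, for siDUSP4 and for 4 h and 24 h of selumetinib in each line. The longest bars are those of members lower after siDUSP4 in MDA231 (13 of 32).

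Of the uptake and hexose phosphorylation genes (SLC2A1, SLC2A3, HK1 and HK2), 1 of 4 was called under siDUSP4. SLC2A3 gave 4.05, 4.92 and 4.60 in siDUSP4 BT549 cells, against 4.85, 5.15 and 5.18 in siCONTROL. The groups overlap by 1 array, all values are below the median probe, and the change was -0.53 ± 0.15 (SE, limma adjusted p = 0.0118). SLC2A1 was called in none of the lines.

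In upper glycolysis ALDOC had the widest change. It gave 6.85, 6.95 and 6.96 in siDUSP4 MDA231 cells, against 8.37, 8.25 and 8.40 in siCONTROL. The groups lie far apart, and the siDUSP4 signal was 37.3% of that in siCONTROL (log2 change -1.42 ± 0.15 SE, limma adjusted p = 1.17e-08). In BT549 the same gene moved the other way, with 6.48, 6.34 and 6.55 in siDUSP4 cells, against 5.93, 5.71 and 6.01 in siCONTROL, a rise of 0.57 ± 0.15 (SE, limma adjusted p = 0.00634). In SUM159PT all 3 siDUSP4 arrays (9.03, 9.48 and 9.35) lay below the siCONTROL arrays (9.77, 9.67 and 9.71), a difference that was not called. PFKL, the liver-type phosphofructokinase subunit, gave 8.85, 8.94 and 8.78 in siDUSP4 MDA231 cells, against 9.23, 9.41 and 9.60 in siCONTROL (log2 change -0.56, limma adjusted p = 0.00307). In BT549 it gave 8.97, 9.02 and 9.16 in siDUSP4 cells, against 9.50, 9.29 and 9.55 in siCONTROL (log2 change -0.40, limma adjusted p = 0.0453). The platelet-type subunit PFKP fell by 0.24 in MDA231, close to the threshold (limma adjusted p = 0.048), and the muscle-type subunit PFKM, with changes of 0.23, 0.06 and 0.30 in MDA231, SUM159PT and BT549, was not called.

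The phosphofructokinase regulators split in MDA231. PFKFB4 gave 7.16, 7.35 and 7.35 in siDUSP4 MDA231 cells, against 8.22, 8.46 and 8.43 in siCONTROL. No array overlaps, and the change was -1.08 ± 0.16 (SE, limma adjusted p = 4.95e-06). PFKFB3, the inducible form with high kinase activity, averaged 9.64 in siDUSP4 and 10.19 in siCONTROL cells (log2 change -0.55, limma adjusted p = 0.00197). PFKFB2 averaged 6.86 in siDUSP4 and 6.40 in siCONTROL cells and was called higher (log2 change 0.47, limma adjusted p = 0.0194). None of the 3 was called in SUM159PT or BT549.

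In lower glycolysis both enolases were called lower in MDA231, and neither was called in SUM159PT or BT549. ENO1, the common enolase, gave 12.53, 12.57 and 12.56 in siDUSP4 cells, against 12.83, 12.84 and 12.77 in siCONTROL (log2 change -0.26, limma adjusted p = 0.0063). ENO2 averaged 9.44 in siDUSP4 and 9.89 in siCONTROL cells (log2 change -0.45, limma adjusted p = 0.0136). GAPDH, PGK1 and PKM, which carry out the other measured steps, were called in none of the lines. PGK1, an ATP-forming kinase, still differed between lines in its change, which was -0.18 in MDA231, 0.18 in SUM159PT and 0.15 in BT549 (limma F adjusted p = 0.0199). LDHA, the lactate-forming dehydrogenase subunit, gave 11.71, 11.77 and 11.76 in siDUSP4 BT549 cells, against 11.46, 11.41 and 11.46 in siCONTROL, a rise of 0.30 ± 0.07 (SE, limma adjusted p = 0.00411). LDHB was not called.

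In MDA231 PDK1 and PDK3 fell and PDK4 rose. PDK1, a known HIF target, gave 8.25, 8.28 and 8.23 in siDUSP4 MDA231 cells, against 9.34, 9.35 and 9.10 in siCONTROL. The siDUSP4 signal was 49.6% of that in siCONTROL (log2 change -1.01 ± 0.11 SE, limma adjusted p = 7.46e-08). In BT549 PDK1 averaged 8.70 in siDUSP4 and 9.09 in siCONTROL cells (log2 change -0.39, limma adjusted p = 0.0198), and in SUM159PT 8.65 in siDUSP4 and 8.32 in siCONTROL cells, where all 3 siDUSP4 arrays lay above and the difference was not called. PDK4, which is induced in fasting and by fatty acids, gave 8.28, 8.06 and 8.20 in siDUSP4 MDA231 cells, against 6.95, 6.77 and 6.74 in siCONTROL. That is a rise to 257% of the siCONTROL signal (log2 change 1.36 ± 0.21 SE, limma adjusted p = 1e-05). In BT549 the PDK4 change was -0.48 and in SUM159PT 0.33, neither of them called. PDK3 was called lower in MDA231 (-0.40 ± 0.11 SE, limma adjusted p = 0.0111) and higher in SUM159PT (0.54 ± 0.11 SE, limma adjusted p = 0.00281).

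**Figure D3:**
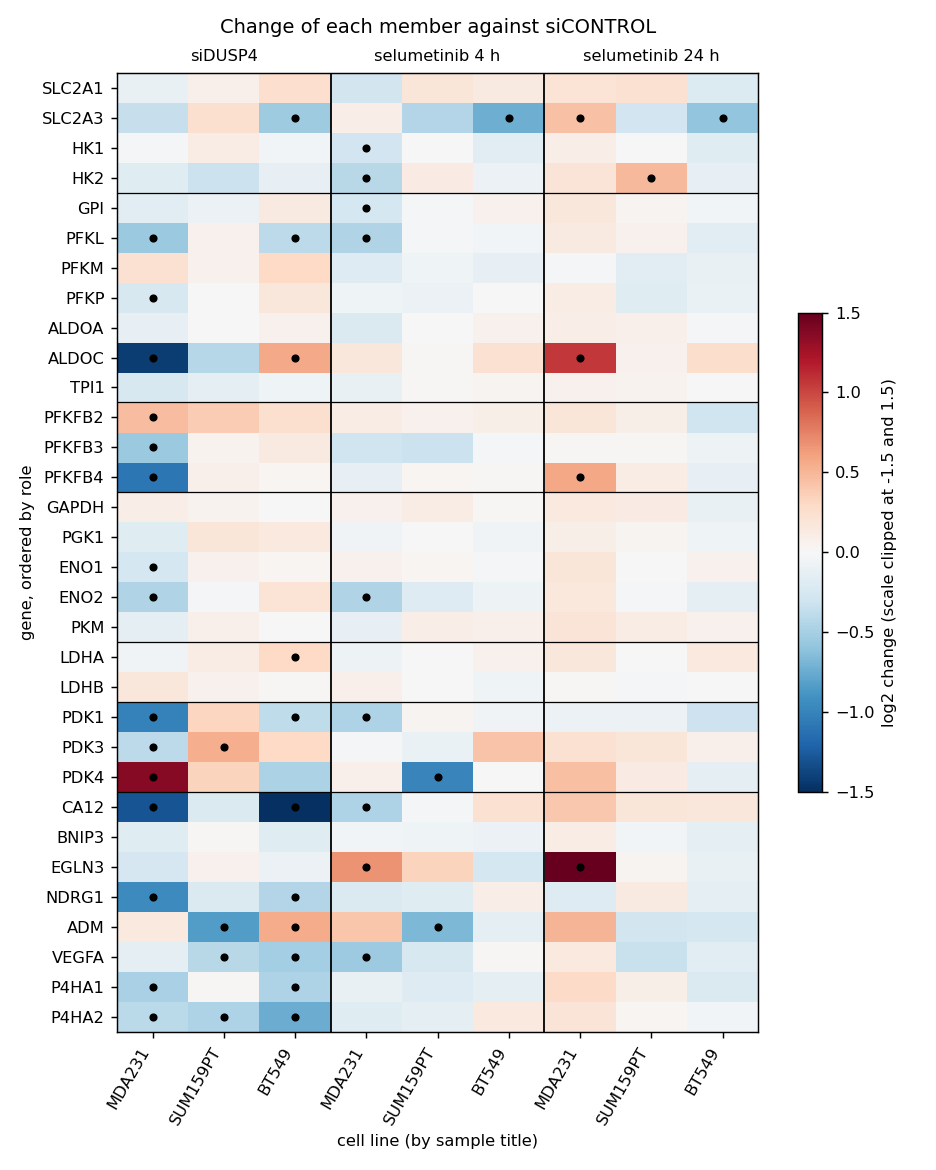
Log2 change against siCONTROL of the 32 measured members, ordered by role (lines between rows separate the roles), after siDUSP4, 4 h and 24 h of selumetinib in each line; black dots mark a limma adjusted p under 0.05. Colours are clipped at -1.5 and 1.5, which CA12 in siDUSP4 BT549 cells (-1.97) and EGLN3 in 24 h MDA231 cells (1.70) exceed; dots are densest in the siDUSP4 MDA231 column.

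Hypoxia-responsive members outside glycolysis gave the only call shared by all 3 lines. P4HA2, a catalytic subunit of the prolyl 4-hydroxylase that modifies collagen, gave 8.96, 9.14 and 9.09 in siDUSP4 MDA231 cells, against 9.53, 9.42 and 9.46 in siCONTROL. It gave 9.17, 9.26 and 9.23 in siDUSP4 SUM159PT cells, against 9.68, 9.68 and 9.70 in siCONTROL. It gave 7.81, 7.88 and 7.94 in siDUSP4 BT549 cells, against 8.55, 8.56 and 8.75 in siCONTROL. In each line every siDUSP4 array lay below every siCONTROL array, with changes of -0.41, -0.47 and -0.74 (limma adjusted p = 0.00095, 0.000996 and 2.05e-07). The F test did not call a difference between the lines for P4HA2. Its sister subunit P4HA1 fell in MDA231 (-0.49 ± 0.13 SE, limma adjusted p = 0.00678) and in BT549 (-0.47 ± 0.13 SE, limma adjusted p = 0.0124), and its change in SUM159PT was 0.01.

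CA12 had the widest fall of the list. It gave 6.23, 6.51 and 6.55 in siDUSP4 BT549 cells, against 8.24, 8.32 and 8.65 in siCONTROL, so that the siDUSP4 signal was 25.5% of that in siCONTROL (log2 change -1.97 ± 0.15 SE, limma adjusted p = 2.35e-11). In MDA231 it gave 7.86, 8.06 and 7.86 in siDUSP4 cells, against 9.21, 9.21 and 9.25 in siCONTROL (log2 change -1.29, limma adjusted p = 7.39e-08). In SUM159PT, the line with the most CA12, the change was -0.21 and was not called, although the arrays did not overlap. NDRG1 fell by 0.96 in MDA231 (limma adjusted p = 1.72e-06) and by 0.43 in BT549 (limma adjusted p = 0.0211). VEGFA was called lower in SUM159PT (-0.42 ± 0.11 SE, limma adjusted p = 0.0327) and BT549 (-0.51 ± 0.11 SE, limma adjusted p = 0.00149), while in MDA231 its change was -0.13.

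ADM, which encodes the vasodilator peptide adrenomedullin, was called in opposite directions. It gave 7.72, 7.97 and 7.96 in siDUSP4 SUM159PT cells, against 8.79, 8.71 and 8.68 in siCONTROL (log2 change -0.84, limma adjusted p = 0.00918). In BT549 it gave 8.24, 8.18 and 8.23 in siDUSP4 cells, against 8.00, 7.43 and 7.55 in siCONTROL, a rise of 0.56 that only just passed (limma adjusted p = 0.0499). EGLN3 and BNIP3, a mitochondrial protein of mitophagy, were called in none of the lines under siDUSP4. Over the 3 lines, P4HA2 was called lower in all 3, PFKL, PDK1, CA12, NDRG1, VEGFA and P4HA1 (6 genes) in 2, no member was called higher in 2, and 13 members were called in none. Over all genes 0.401% were called lower in all 3 lines, 2.42% lower in exactly 2, 1.22% higher in at least 2, and 71.3% in none. ALDOC, PDK3 and ADM (3 genes) were called lower in 1 line and higher in another, as were 1.44% of all genes.

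**Figure D4:**
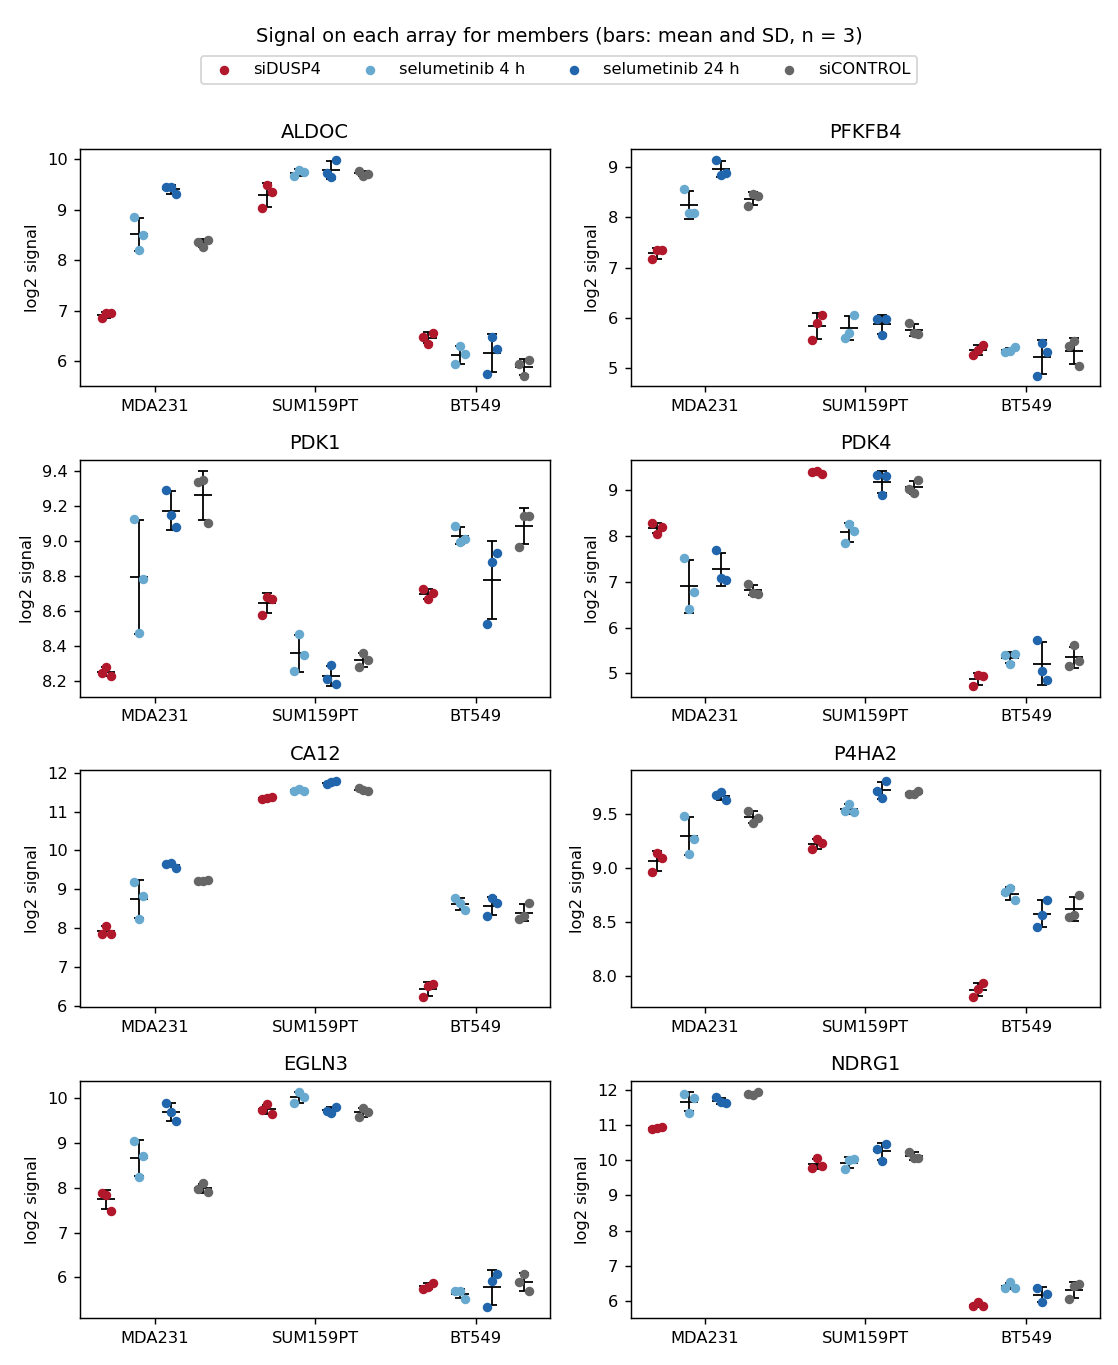
Log2 signal on every array for 8 members in MDA231, SUM159PT and BT549, with siDUSP4, selumetinib 4 h, selumetinib 24 h and siCONTROL from left to right in each line; bars are mean and SD of 3 arrays. P4HA2 is lower after siDUSP4 in all 3 lines, EGLN3 and ALDOC are higher after 24 h of selumetinib in MDA231, and the 4 h arrays of MDA231 spread widely.

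The promoters of members called lower in at least 2 lines under siDUSP4 are shown, since these calls recurred between lines in the reported fit. The HIF factors bind a short core, searched here as ACGTG and GCGTG on both strands, and CACGTG, the E-box bound by MYC and related factors, contains ACGTG. Each stretch is the 300 bases around the gene start, most of them before it, in RefSeq's table of GRCh38.p14, written in the direction of the gene, with matches in capitals. P4HA2 lies on the minus strand (chr5:132227042-132227341), P4HA1 on the minus strand (chr10:73096817-73097116), CA12 on the minus strand (chr15:63381797-63382096), PDK1 on the plus strand (chr2:172555123-172555422) and PFKL on the plus strand (chr21:44299803-44300102).
P4HA2: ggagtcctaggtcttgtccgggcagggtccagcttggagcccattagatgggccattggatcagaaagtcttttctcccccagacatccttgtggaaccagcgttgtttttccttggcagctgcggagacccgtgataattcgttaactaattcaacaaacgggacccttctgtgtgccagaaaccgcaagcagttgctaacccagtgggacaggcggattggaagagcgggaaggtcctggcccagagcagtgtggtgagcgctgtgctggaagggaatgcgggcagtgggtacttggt
P4HA1: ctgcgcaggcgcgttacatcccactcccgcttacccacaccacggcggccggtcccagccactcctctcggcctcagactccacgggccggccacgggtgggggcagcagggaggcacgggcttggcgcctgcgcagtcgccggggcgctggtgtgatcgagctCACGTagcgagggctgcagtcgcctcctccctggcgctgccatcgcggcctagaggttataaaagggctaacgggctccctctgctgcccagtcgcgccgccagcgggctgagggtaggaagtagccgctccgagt
CA12: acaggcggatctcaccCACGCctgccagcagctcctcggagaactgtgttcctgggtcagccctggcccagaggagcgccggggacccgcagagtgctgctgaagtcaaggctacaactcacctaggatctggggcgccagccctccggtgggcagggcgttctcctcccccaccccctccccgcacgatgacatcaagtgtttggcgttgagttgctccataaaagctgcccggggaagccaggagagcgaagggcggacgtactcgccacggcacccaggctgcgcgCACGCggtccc
PDK1: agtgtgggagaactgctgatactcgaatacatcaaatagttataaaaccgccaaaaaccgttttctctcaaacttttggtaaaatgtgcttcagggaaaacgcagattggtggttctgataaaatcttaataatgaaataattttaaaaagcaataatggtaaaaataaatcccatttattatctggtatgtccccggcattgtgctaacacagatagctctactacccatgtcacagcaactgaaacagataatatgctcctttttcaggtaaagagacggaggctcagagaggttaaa
PFKL: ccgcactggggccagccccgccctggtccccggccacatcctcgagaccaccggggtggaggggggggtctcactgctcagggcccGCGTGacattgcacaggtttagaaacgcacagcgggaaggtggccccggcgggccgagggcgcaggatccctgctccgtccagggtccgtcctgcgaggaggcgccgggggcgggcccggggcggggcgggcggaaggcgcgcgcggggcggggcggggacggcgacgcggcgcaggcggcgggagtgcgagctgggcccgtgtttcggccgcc

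P4HA1 holds 1 ACGTG match, read as CACGT on the printed strand, CA12 holds 2 GCGTG matches, both read as CACGC, and PFKL holds 1 GCGTG match. P4HA2 and PDK1 hold none in this window. The table had a promoter for 28 of the 32 measured members, and had none for NDRG1, PFKFB2, SLC2A3 and VEGFA. Of the 28, 11 (39.3%) held ACGTG, 15 (53.6%) GCGTG, 20 (71.4%) at least 1 of these and 4 (14.3%) CACGTG. Over the promoters of 13861 tested genes the shares were 23.9%, 44.7%, 56.6% and 8.89%. A match is a description of the letters and shows neither binding nor its absence.

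Related lists, drawn up with the members, add the surroundings of the pathway. Of 17 other hypoxia-responsive genes, 10 were called lower and 1 higher in siDUSP4 MDA231 cells, with a median change of -0.40, where 9.77% and 7.86% of all genes were called lower and higher. DDIT4, an inhibitor of mTOR signalling, averaged 9.20 in siDUSP4 and 10.45 in siCONTROL cells (log2 change -1.25, limma adjusted p = 2.09e-10), and MXI1, a MYC antagonist, 7.93 in siDUSP4 and 8.90 in siCONTROL cells (log2 change -0.97, limma adjusted p = 1.36e-07). ANGPTL4 moved the other way in siDUSP4 MDA231 cells, with a log2 change of 1.30. The same list had 2 called lower and 0 higher in SUM159PT (MXI1 -0.45 and STC2 -0.49), where 1.78% of all genes were lower, and none in BT549, where 9.22% were lower. Of 10 HIF pathway components, 2 were called lower in MDA231, namely EPAS1, which encodes HIF-2 alpha (-0.58 ± 0.11 SE, limma adjusted p = 0.000145), and the oxygen sensor EGLN1 (-0.61 ± 0.13 SE, limma adjusted p = 0.000597). In BT549 2 were called lower, CITED2, which competes with HIF for its coactivator (-0.75), and EPAS1 (-0.38), and in SUM159PT 1, ARNT2 (-0.59).

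Of 10 genes of the pentose phosphate and serine branches, 5 were called lower in siDUSP4 MDA231 cells, 1 in SUM159PT and 3 in BT549, and 0 higher, where 9.77%, 1.78% and 9.22% of all genes were called lower. They included PHGDH, the first enzyme of serine synthesis, with -0.62 in MDA231 and -0.79 in SUM159PT, PSAT1, which follows it, with -0.81 in BT549, and the mitochondrial SHMT2 with -0.46 in MDA231 and -0.45 in BT549. Of 13 genes of pyruvate entry and the TCA cycle, 1 was called higher and 1 lower in MDA231 (MPC2 0.44 and CS -0.36), none in SUM159PT, and 2 higher and 1 lower in BT549 (among them SDHA 0.70 and MPC1 0.47). Of 9 genes of glucose sensing, 3 were called higher and 1 lower in MDA231, 1 higher in SUM159PT and 2 higher in BT549, among them PRKAA2, a catalytic subunit of AMPK (0.47 in MDA231 and 0.40 in SUM159PT), and TXNIP, which curbs glucose uptake (0.44 in BT549). Over all genes 7.86%, 1.05% and 4.97% were called higher in MDA231, SUM159PT and BT549. None of 8 tissue-restricted isozymes was called in any line.

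After 4 h of selumetinib VEGFA, CA12, PDK1, PFKL, ENO2, HK1, HK2 and GPI fell in MDA231, where the arrays of the group stood at unequal levels, EGLN3 rose there, and PDK4 and ADM fell in SUM159PT. Against siCONTROL, 8 of 32 members were called lower and 1 higher in MDA231, where 14.5% and 1.11% of all genes were. In SUM159PT 2 were called lower and 0 higher, where 3.81% and 0.473% of all genes were, and in BT549 1 lower and 0 higher, where 0.49% and 0.161% were. The median member change in MDA231 was -0.11 and that of all genes -0.13, and with quantile normalization repeated they were -0.015 and -0.044. Array A of this MDA231 group was the highest of the 3 in 27 of 32 members and array B the lowest in 31. The median SD of the members was 0.24 in it and 0.04 to 0.17 in the other 11 groups. Without array B 1 member was called lower and without array A 13. With quantile normalization repeated 3 were called lower and 3 higher, where 7.59% and 2.81% of all genes were. With limma's default array weights, 0 members were called in either direction. For these weights and for the fits without array A or B, shares of all genes are not given. Those counts do not set the members against all genes. Arrays B and C and the BT549 24 h array A have low upper quartiles. Leaving them out left the MDA231 4 h group as array A alone (n = 1). The changes of VEGFA, CA12 and EGLN3 in MDA231 at 4 h were then -0.30, -0.02 and 1.05.

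Of the 8 lower in MDA231, only CA12 and VEGFA (2 of 32 members) had no overlap between the groups, where 7.38% of all genes were called lower without overlap. VEGFA gave 9.62, 9.11 and 9.39 after 4 h in MDA231, against 10.03, 9.87 and 9.85 in siCONTROL (log2 change -0.54, limma adjusted p = 0.00164). CA12 gave 9.20, 8.23 and 8.83 after 4 h, against 9.21, 9.21 and 9.25 in siCONTROL (log2 change -0.47, limma adjusted p = 0.0291), so array A stood next to siCONTROL. The other 6, HK1, HK2, GPI, PFKL, ENO2 and PDK1, changed by -0.26 to -0.47, and array A lay within the range of the siCONTROL arrays in each. With the 3 low arrays left out, the PFKL change, then of array A alone (n = 1), was 0.048. EGLN3 was the one called higher, with 9.04, 8.23 and 8.71 after 4 h, against 7.98, 8.10 and 7.90 in siCONTROL (log2 change 0.67, limma adjusted p = 0.00531).

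In SUM159PT PDK4 was lower after 4 h. It gave 7.86, 8.27 and 8.11 after 4 h, against 9.03, 8.95 and 9.22 in siCONTROL, and the signal was 50.5% of that in siCONTROL (log2 change -0.99 ± 0.21 SE, limma adjusted p = 0.00444). ADM was the other called gene there, at 8.06 after 4 h and 8.73 in siCONTROL (log2 change -0.67, limma adjusted p = 0.04). With the replicate letter as a block ADM was no longer called (limma adjusted p = 0.053), which left 1 member called there. In BT549 SLC2A3, dim in that line, gave 4.51, 4.37 and 4.12 after 4 h, against 4.85, 5.15 and 5.18 in siCONTROL (log2 change -0.73, limma adjusted p = 0.009). The 4 h change differed between lines in 0 of 32 members by the F test, where 1.84% of all genes did. Without the MDA231 4 h array A the count was 17. The share of all genes in that fit is not given, so the 17 does not set the members against all genes. MYC, a regulator of glycolysis genes and a known target of ERK signalling, was lower after 4 h in MDA231 (-1.05 ± 0.10 SE, limma adjusted p = 4.47e-09) and SUM159PT (-0.50 ± 0.10 SE, limma adjusted p = 0.00306).

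The related lists in MDA231 rest on the same uneven 4 h arrays, in a comparison with 14.5% of all genes lower. There, 3 of 10 HIF pathway components were called lower and 1 higher after 4 h (EGLN1 -0.63 and EPAS1 -0.48), 1 lower in SUM159PT (ARNT2 -0.63) and none in BT549. Of the 17 other hypoxia-responsive genes, 2 were called lower and 1 higher in MDA231 (ANGPTL4 -0.85 and BHLHE40 -0.71) and 3 lower in SUM159PT (among them STC2 -1.23 and AK4 -0.53). The pentose phosphate and serine branches had 5 of 10 lower in MDA231 (among them RPIA -0.53 and PGLS -0.93, both with overlapping groups) and 1 in SUM159PT (RPIA -0.48), and pyruvate entry and the TCA cycle 3 of 13 lower in MDA231 (among them OGDH -0.38 and CS -0.35) and 1 in SUM159PT (PDP1 -0.50). Of 9 glucose sensing genes, 2 were called higher and 3 lower in MDA231, among them PPARGC1A, a coactivator of mitochondrial genes (1.08), and 1 lower in SUM159PT. In SUM159PT 3.81% of all genes were lower. No gene of these lists was called in BT549 after 4 h.

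After 24 h of selumetinib EGLN3, ALDOC, PFKFB4 and SLC2A3 rose in MDA231, HK2 rose in SUM159PT and SLC2A3 fell in BT549. In MDA231 4 of 32 members were called higher and 0 lower, where 7.36% and 10.3% of all genes were. In SUM159PT 1 was called higher and 0 lower, where 1.34% and 2.94% of all genes were, and in BT549 0 higher and 1 lower, where 2.66% and 12.4% were. The median member change was 0.17, 0.04 and -0.11 in MDA231, SUM159PT and BT549, and that of all genes 0.02, -0.01 and -0.09. With quantile normalization repeated the BT549 medians were -0.00055 for the members and -0.021 for all genes. With quantile normalization repeated, 10 members were called higher in MDA231, where 10.7% of all genes were. In BT549 that scaling gave 4 higher and 1 lower, where 3.09% and 3.96% of all genes were. Without the 3 low arrays, none of which is in these 2 MDA231 groups, the MDA231 count was 13. The share of all genes in that fit is not given, so the 13 does not set the members against all genes.

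EGLN3 had the widest rise of the list. It gave 9.89, 9.69 and 9.50 after 24 h in MDA231, against 7.98, 8.10 and 7.90 in siCONTROL. The groups lie far apart, and the signal was 325% of that in siCONTROL (log2 change 1.70 ± 0.16 SE, limma adjusted p = 9.05e-10). In SUM159PT and BT549 its change was 0.04 and -0.11, and the difference between lines was called (limma F adjusted p = 4.7e-07). ALDOC gave 9.46, 9.45 and 9.30 after 24 h in MDA231, against 8.37, 8.25 and 8.40 in siCONTROL (log2 change 1.06 ± 0.15 SE, limma adjusted p = 1.56e-06). In MDA231, then, ALDOC was below siCONTROL after siDUSP4 and above it after 24 h of selumetinib, as was PFKFB4, and both comparisons share the same 3 siCONTROL arrays. PFKFB4 gave 9.14, 8.85 and 8.88 after 24 h, against 8.22, 8.46 and 8.43 in siCONTROL (log2 change 0.58 ± 0.16 SE, limma adjusted p = 0.00703).

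SLC2A3 was called higher in MDA231 and lower in BT549 after 24 h. It gave 9.68, 9.53 and 9.39 after 24 h in MDA231, against 9.32, 9.04 and 8.94 in siCONTROL (log2 change 0.43, limma adjusted p = 0.0368). It gave 4.64, 4.29 and 4.47 after 24 h in BT549, against 4.85, 5.15 and 5.18 in siCONTROL (log2 change -0.59, limma adjusted p = 0.00868), both groups below the median probe. HK2 gave 10.51, 10.58 and 10.66 after 24 h in SUM159PT, against 10.11, 10.10 and 10.07 in siCONTROL (log2 change 0.49, limma adjusted p = 0.00939). The 24 h change differed between lines in 4 of 32 members (12.5%), where 9.91% of all genes did. These were SLC2A3, HK2, ALDOC and EGLN3.

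Among the related lists, 4 of 10 HIF pathway components were called higher in MDA231 after 24 h and 0 lower, where 7.36% and 10.3% of all genes were. EPAS1 averaged 10.93 after 24 h and 9.67 in siCONTROL (log2 change 1.26, limma adjusted p = 9.21e-11), and CITED2 11.69 after 24 h and 10.54 in siCONTROL (log2 change 1.16, limma adjusted p = 4.89e-08). Of the same list 1 was called higher and 2 lower in BT549 (ARNT2 0.49, with overlapping groups, and EGLN1 -0.41 among them) and none in SUM159PT. Of 17 other hypoxia-responsive genes, 4 were called higher and 1 lower in MDA231 (DDIT4 1.00, and ANGPTL4, a lipase inhibitor, -1.34), 1 lower in SUM159PT (STC2 -0.79) and 5 lower in BT549 (KDM3A -0.51 and ERO1A -0.46 among them), where 12.4% of all genes were lower in BT549. The BT549 24 h group holds array A, of low upper quartile (7.50). With quantile normalization repeated, 3.96% of all genes were lower there, and the related lists are not given for that scaling. PDK2, the kinase of the same family kept in the TCA list, rose by 0.92 ± 0.14 (SE, limma adjusted p = 8.54e-06) in MDA231, and PDP1, the phosphatase that opposes these kinases, by 0.46 in MDA231, while it fell by 0.35 in SUM159PT. That list had 3 of 13 called higher and 0 lower in MDA231, 1 lower in SUM159PT and none in BT549.

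The pentose phosphate and serine branches had 2 of 10 called higher and 4 lower in MDA231 after 24 h (PSAT1 -1.09 and PHGDH -0.75), 1 lower in SUM159PT (RPIA -0.52) and 2 lower in BT549 (RPIA -0.53 and PGLS -0.68). Of 9 glucose sensing genes, 2 were called higher and 2 lower in MDA231 (PPARGC1A 1.65 and MYC -0.66 among them), 1 higher and 1 lower in SUM159PT (PPARGC1A 0.72 and PRKAA2 -0.47), and 3 lower in BT549 (PRKAA2 -0.41 and PRKAA1 -0.31 among them). In these comparisons 10.3%, 2.94% and 12.4% of all genes were lower in MDA231, SUM159PT and BT549. With quantile normalization repeated the BT549 share was 3.96%. The 8 tissue-restricted isozymes had no call at either time.

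Set directly against the earlier time, 24 h of selumetinib was above 4 h for much of the list in MDA231. There 17 of 32 members were called higher and 0 lower, where 20.4% and 4.48% of all genes were, and in 16 of the 17 the groups did not overlap, where 14% of all genes were called higher without overlap. The median member difference was 0.33 and that of all genes 0.12, and with quantile normalization repeated 0.20 and 0.05. CA12 gave 9.64, 9.67 and 9.55 at 24 h, against 9.20, 8.23 and 8.83 at 4 h (log2 difference 0.87, limma adjusted p = 3.87e-05), and EGLN3 averaged 9.69 at 24 h and 8.66 at 4 h (log2 difference 1.03, limma adjusted p = 1.17e-05). VEGFA averaged 10.06 at 24 h and 9.38 at 4 h (log2 difference 0.69, limma adjusted p = 2.45e-05). Without the 3 low arrays the 4 h group is array A alone (n = 1). The differences of CA12, EGLN3 and VEGFA were then 0.43, 0.65 and 0.44, and that of PFKL was 0.08.

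In SUM159PT 1 member was called higher at 24 h than at 4 h and 0 lower, where 2.32% and 0.685% of all genes were. It was PDK4, with 9.33, 8.90 and 9.32 at 24 h, against 7.86, 8.27 and 8.11 at 4 h (log2 difference 1.11, limma adjusted p = 0.00112), and the 24 h arrays overlapped those of siCONTROL. In BT549 0 were called higher and 2 lower, where 1.91% and 5.82% of all genes were. These were SLC2A1 (-0.34 ± 0.11 SE, limma adjusted p = 0.0474) and PDK3 (-0.35 ± 0.11 SE, limma adjusted p = 0.0492), both near the threshold, and without the 3 low arrays neither was called.

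Over the 9 treatment comparisons 23 members (71.9%) were called at least once and 9 never, where 51.3% of all genes were called at least once. The 9 were SLC2A1, PFKM, ALDOA, TPI1, GAPDH, PGK1, PKM, LDHB and BNIP3. Their changes ranged from -0.27 (SLC2A1 after 4 h in MDA231) to 0.30 (PFKM after siDUSP4 in BT549). A gene without a call is not shown to have stayed the same.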

How the data were processed

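RNA was measured on 36 Affymetrix arrays, 3 for each of 12 groups. The deposited values are log2 signals that the authors summarised by RMA; the submitters' processing notes name Affymetrix Expression Console 1.1. Neither its options nor a genome build is given in the sources used here. Of 33297 probes, 19181 carry 1 gene symbol in the platform annotation, 2055 several and 12061 were not listed. One probe per gene (highest mean) gave 17958 genes, of which 895 had several probes. No further normalization or filter was applied.

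limma 3.58.1 in R 4.3.3 (lmFit, eBayes) fitted 12 group means to all 36 arrays, with 24 residual and 7.8 prior degrees of freedom, for 15 comparisons and an F test of each treatment's change between lines. P-values were adjusted by Benjamini-Hochberg over all genes, with the threshold at 0.05. The procedure was tested on simulated data in which each gene had the same spread in all 12 groups and arrays were independent. That test does not cover arrays at unequal levels, such as those of MDA231 at 4 h. Deviations from the group means of same-lettered arrays in a treatment and siCONTROL correlated over 0.1 in all 3 pairs only for SUM159PT at 4 h (0.105 to 0.271), where the fit with the letter as a block is also given. Every member is named or accounted for in a count, and of each related list up to 2 called genes of smallest adjusted p are named per comparison. ANGPTL4 under siDUSP4 in MDA231 is named in addition. The members and lists were chosen with earlier results of these data known. Tables and figures used Python 3.11.15 with pandas 2.3.3 and matplotlib 3.10.9. The alternatives were other scalings, array weights, an intensity trend, a filter on dim genes, fits of part of the arrays, a replicate block and each array left out.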

Additional observations from a re-analysis of the deposited data

Results flagged for a closer look

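In 15 members the siDUSP4 change differed between the lines by the limma F test, with Benjamini-Hochberg adjustment over all genes. The adjusted p was 1.14e-07 for ALDOC, 9.44e-07 for CA12, 1.74e-06 for PDK1, 0.00012 for PDK4, 0.000176 for PDK3, 0.000289 for PFKFB4 and 0.00119 for ADM. It was 0.011 for PFKFB3, 0.0123 for NDRG1, 0.0199 for SLC2A3, 0.0199 for PGK1, 0.0315 for ENO1, 0.0364 for ENO2, 0.0442 for LDHA and 0.0466 for PFKP. After 24 h of selumetinib the change differed between the lines in 4 members, with a limma F adjusted p of 4.7e-07 for EGLN3, 0.00245 for ALDOC, 0.00255 for SLC2A3 and 0.0327 for HK2.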

How the results depend on the processing

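The counts below are members called in either direction. Shares of all genes called are not given beside them, so these counts do not set the members against all genes. Of 48 called changes against siCONTROL, 15 were called under every alternative, among them ALDOC, PFKFB4, PDK1, PDK4, CA12, NDRG1, P4HA1 and P4HA2 under siDUSP4 in MDA231, and ALDOC and EGLN3 after 24 h in MDA231. The causes were not tested. Signal over background limits dim genes such as SLC2A3 in BT549, which lies below the median probe.

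For siDUSP4 (reported 15 in MDA231, 4 in SUM159PT, 11 in BT549), fits of each line's own arrays gave 9, 9 and 7. For 4 h (9, 2, 1) they gave 1, 6 and 0, for 24 h they gave 4 in SUM159PT and 0 in BT549 (reported 1 and 1), and for 24 h against 4 h 4 in SUM159PT and 0 in BT549 (reported 1 and 2). With quantile normalization repeated, 24 h gave 10 in MDA231 and 5 in BT549, 4 h gave 2 in BT549, and 24 h against 4 h gave 2 in SUM159PT and 0 in BT549. Genes above the median probe gave 8 in MDA231 and 2 in BT549 at 24 h and 2 in BT549 at 4 h. The intensity trend gave 9 in MDA231 and 2 in BT549 at 24 h, and 2 in SUM159PT and 1 in BT549 for 24 h against 4 h.

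limma's default array weights, whose estimation stopped before it converged, gave 11 in SUM159PT and 19 in BT549 for siDUSP4, 0, 7 and 2 at 4 h, 12, 5 and 6 at 24 h, and 8, 5 and 4 for 24 h against 4 h (MDA231, SUM159PT, BT549). Gene-by-gene weights, chosen after seeing the data and these counts, gave 11 in SUM159PT and 19 in BT549 for siDUSP4, 17, 7 and 2 at 4 h, 9, 5 and 6 at 24 h, and 4 in SUM159PT for 24 h against 4 h. The MDA231 4 h count thus ran from 0 to 17 with the weighting method. Leaving out the 3 arrays of lowest upper quartile, also chosen after seeing the data, gave 2 in MDA231 and 2 in BT549 at 4 h, 13 and 3 at 24 h, and 6 and 0 for 24 h against 4 h. The MDA231 4 h group then holds array A alone (n = 1), taken to vary like the other groups.

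Members whose 4 h change differs between lines (reported 0) numbered 2 with medians aligned, 2 with the replicate block, 3 above the median probe, 4 with the trend, 5 with quantile, 5 with default weights, 17 with gene-by-gene weights and 5 without the 3 arrays. At 24 h (reported 4) they numbered 9 with default and 8 with gene-by-gene weights and 7 without the 3 arrays, and under siDUSP4 (reported 15) 24 with default weights.

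With each array left out in turn, siDUSP4 gave 11 to 16 in MDA231, 2 to 3 in SUM159PT and 6 to 10 in BT549. The 4 h counts ran from 2 (without MDA231 4 h array B) to 14 (without array A) in MDA231, 0 to 1 in SUM159PT and 0 to 2 in BT549. The 24 h counts were 3 to 4, 0 to 1 and 0 to 3, and those of 24 h against 4 h 13 to 22, 1 and 0 to 3. Counts that differ between lines ran from 10 to 15 (siDUSP4), 0 to 17 (4 h) and 3 to 7 (24 h).

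Of 27 pairs of same-lettered arrays, 6 correlated over 0.1 (-0.41 to 0.337), with all 3 pairs doing so only for SUM159PT at 4 h. The replicate block gave 1 in SUM159PT at 4 h and 1 in BT549 for 24 h against 4 h. PKM siCONTROL SUM159PT minus BT549 turned to -0.17 with quantile (limma adjusted p = 0.0113), from 0.01 uncalled, and PFKL at 4 h in MDA231 to 0.048 in array A alone (limma adjusted p = 0.977). Over all genes, the share of calls that are lower moved with quantile from 65% to 51.7% for siDUSP4 in BT549, and with medians aligned from 55.4% to 65.6% in MDA231. With quantile it moved from 92.9% to 73%, 88.9% to 71.6% and 75.2% to 61.4% at 4 h, and at 24 h from 68.8% to 55.7% in SUM159PT and 82.4% to 56.2% in BT549.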
